A study of Arabidopsis thaliana with 6 samples.

Results

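The 9 genes described here encode enzymes that act on the auxin indole-3-acetic acid (IAA) or on its stored forms, and were chosen by locus as known genes of IAA oxidation, glucosylation, methylation and conjugate hydrolysis. They are 9 of the 26185 loci that had any read. DAO1 (AT1G14130) and DAO2 (AT1G14120) are IAA oxidases. ILR1 (AT3G02875), IAR3 (AT1G51760) and ILL2 (AT5G56660) are amidohydrolases that release IAA from its amino acid conjugates. UGT74D1 (AT2G31750), UGT74E2 (AT1G05680) and UGT84B1 (AT2G23260) are glucosyltransferases, and IAMT1 (AT5G55250) is a carboxyl methyltransferase.

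Plants keep the level of active IAA within bounds by making it, oxidizing it and storing it in bound forms. GH3 enzymes join IAA to amino acids, DAO1 oxidizes IAA and its conjugates, and glucosyltransferases join IAA or related acids to glucose. Amidohydrolases and esterases run the other way and set free IAA from amino acid conjugates and from its methyl ester. In dark-grown seedlings auxin takes part in the growth of the hypocotyl, the closing of the apical hook and the growth of the root.

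Messenger RNA of Arabidopsis thaliana seedlings 3 days old, grown in darkness at 22 °C, was sequenced in 3 groups of 2 biological repeats. The seeds of all groups were first imbibed for 3 days at 4 °C. Col_Kyn was wild-type Col-0 on MS, a mineral culture medium, with kynurenine, an inhibitor of the TAA1 family of tryptophan aminotransferases that open the main route to IAA, labelled as 25 mM (whether that unit is right could not be settled here). wei8tar2_MS was a line in the Col-0 background on MS, labelled wei8-/- tar2+/-, that is homozygous for a mutation in WEI8 (another name of TAA1) and heterozygous for one in TAR2, a gene of the same family, and the labels do not say which of its seedlings were pooled. Col_MS was wild-type Col-0 on MS, and all groups shared ecotype, age and darkness.

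Between 23510 and 24243 genes were listed per library. Levels are in CPM, the reads of a gene scaled to a common library size. Where a gene had no read, up to 3 reads would still be compatible with the count, worth between 0.0943 and 0.165 CPM depending on depth. TAA1 had 7.89 and 8.36 CPM in wei8tar2_MS, against 37.8 and 38.7 in Col_MS, and TAR2 had 2.90 and 2.01 CPM in wei8tar2_MS, against 10.08 and 8.11 in Col_MS, so both targeted genes were lower in the line. The etiolated-state genes PORA and PORB, which make protochlorophyllide reductase, summed to 2510 to 3632 CPM over the 6 libraries. Summed over 4 genes of light-grown green tissue (CAB1, CAB2, CAB3 and RBCS1A), the Col_Kyn libraries had 4444 and 10142 CPM, the wei8tar2_MS libraries 7275 and 7415, and the Col_MS libraries 5829 and 6426, so that the 2 Col_Kyn libraries also stood apart from each other. CAB1 alone had 1301 and 4796 CPM in Col_Kyn. Col_MS replicate 1 stood apart from Col_MS replicate 2: 5 of 5 camalexin and defence genes were higher there than in every other library, summing to 776 CPM, against 50.3 to 61.5 in the other 5. Summed over 10 seed reserve genes, the 2 Col_Kyn libraries had 32.4 and 4.58 CPM, the wei8tar2_MS libraries 48.0 and 29.3, and the Col_MS libraries 89.7 and 21.4. Their part in the results below was not tested, and the values of each gene without Col_MS replicate 1 are given where they turn on it.

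Of the 9 genes, 8 passed the filter on low counts and were tested, and 0 were called in any of the 3 comparisons at an adjusted p under 0.05 by edgeR's quasi-likelihood test. The background was 0.366% of 21326 tested genes called between Col_Kyn and Col_MS, 1.08% between wei8tar2_MS and Col_MS and 0.0281% between wei8tar2_MS and Col_Kyn. At an unadjusted p under 0.05 there were 2, 3 and 1 of the 8 genes in these comparisons, where the background was 17.0%, 20.6% and 4.32% of tested genes. DESeq2 called 1 gene, UGT74E2, between Col_Kyn and Col_MS and 0 in the other comparisons, against a background of 3.4%, 6.09% and 0.238%. The estimates were narrow enough to bound the changes for most of the genes. For 7 of 8 genes in each comparison, all but UGT74E2, the 95% interval of the log2 fold change lay within 2-fold either way, as it did for 76.1%, 74.2% and 80.4% of tested genes. An interval of this kind does not show that the levels were equal. The median log2 fold change of the 8 genes was 0.06, 0.13 and 0.07 in the comparisons in this order, and that of all tested genes was -0.02, -0.02 and -0.01.

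**Figure D1:**
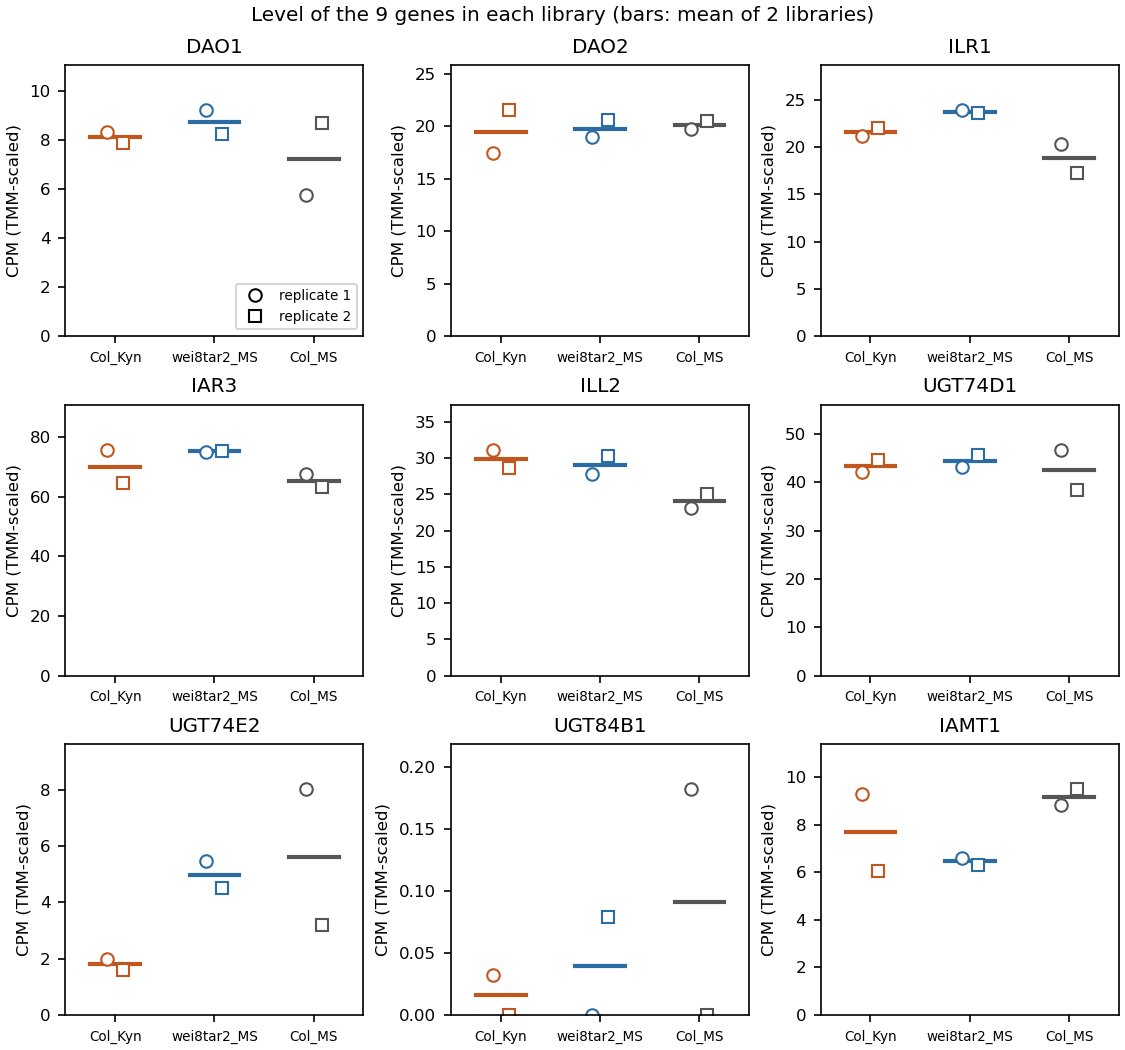
Level of each of the 9 genes in the 6 libraries, in CPM (TMM-scaled) on a linear axis from 0, with circles for replicate 1, squares for replicate 2 and a bar at the mean of 2 libraries. UGT74E2 is lowest in both Col_Kyn libraries, at 1.99 and 1.60 CPM, and most spread in Col_MS, at 8.01 and 3.2 CPM.

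Levels can be compared between genes only per length. The RPKM values the authors deposited (reads scaled by gene length and library total) were used for this. The deposited lengths run past the coding sequence, at 3471 bases for 1161 coding bases in IAMT1 and 1599 for 1362 in UGT74E2. For several genes the length was close to the genomic span, as for ILL2, listed at 2049 bases and annotated from 22933267 to 22935316. Introns would then count in the length. A gene with much sequence outside its coding part, introns included, can so appear lower, and the order, ratios and shares hold for these lengths. IAR3 was the highest of the 9 in every library, with a mean of 30.7 RPKM in Col_Kyn, 34.2 in wei8tar2_MS and 29.9 in Col_MS. UGT74D1, ILL2, DAO2 and ILR1 formed a middle band, with group means between 8.87 and 16.1 RPKM. DAO1 had means of 4.17 RPKM in Col_Kyn, 4.66 in wei8tar2_MS and 3.88 in Col_MS, near the medians of the listed genes, which were 4.39, 4.65 and 4.71 RPKM in the same groups. UGT74E2 and IAMT1 lay lower, between 1.09 and 3.58 RPKM as group means, and UGT84B1 was close to 0. Ordered by mean RPKM, 3 steps between neighbours were free of overlap over the 6 libraries: IAR3 above UGT74D1, ILR1 above DAO1, and IAMT1 above UGT84B1. DAO2 exceeded ILR1 within each of the 6 libraries although their ranges overlapped, from 10.9 RPKM for the lowest DAO2 value to 11.2 RPKM for the highest ILR1 value. UGT74E2 and IAMT1 changed places, with IAMT1 above UGT74E2 in 3 of 6 libraries, which were both Col_Kyn libraries and Col_MS replicate 2. The 3 hydrolases together made up 63.1% and 59.2% of the summed RPKM of the 9 genes in Col_Kyn. Their share was 60.7% and 60.8% in wei8tar2_MS and 56.1% and 57.4% in Col_MS. Within these 9 genes, hydrolase transcripts thus outweighed those of the oxidases and glucosyltransferases in all libraries. The shares depend on the genes listed, as UGT75D1, a glucosyltransferase outside the 9, had 30.6 and 38.4 RPKM in Col_MS.

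DAO1 and DAO2 encode 2-oxoglutarate and iron dependent dioxygenases. DAO1 is the main oxidase on the way from IAA to oxindole acetic acid, acting on IAA or its conjugates, and DAO2 is a close copy that stands beside it. In the TAIR10.1 annotation DAO2 lies on chromosome 1 from 4833396 to 4835089 and DAO1 from 4835724 to 4837771, both on the minus strand, with 634 bases between them. Their coding sequences were 83.1% identical over 906 aligned bases, and the longest run without a difference was 34 bases. A stretch of 150 coding bases is shown for both because reads of the pair can be told apart only where they differ. It runs over coding bases 25 to 174 of DAO1 and 22 to 171 of DAO2, as in RefSeq (TAIR10.1), 5′ to 3′ along the gene. Capitals mark the 11 bases that differ.
DAO1: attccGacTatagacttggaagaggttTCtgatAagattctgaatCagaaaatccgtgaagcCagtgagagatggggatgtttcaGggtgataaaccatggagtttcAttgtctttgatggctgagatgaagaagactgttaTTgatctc
DAO2: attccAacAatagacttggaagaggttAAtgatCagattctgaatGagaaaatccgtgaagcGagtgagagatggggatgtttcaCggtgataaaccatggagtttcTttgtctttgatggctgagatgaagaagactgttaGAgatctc
The window is the ungapped stretch of its length with the fewest differences between the 2 coding sequences. The deposited counts are of uniquely mapped reads, per the file headers, and a read that falls wholly in a shared run was then not counted for either gene.

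DAO1 had 8.33 and 7.89 CPM in the Col_Kyn libraries, 9.22 and 8.24 CPM in the wei8tar2_MS libraries, and 5.75 and 8.71 CPM in the Col_MS libraries. Col_MS replicate 1 was the lowest of the 6, and the other 5 lay within 7.89 and 9.22 CPM. The log2 fold change was 0.17 ± 0.21 in Col_Kyn (SE, edgeR adjusted p = 0.731) and 0.27 ± 0.21 in wei8tar2_MS (adjusted p = 0.507), both against Col_MS. Without Col_MS replicate 1 these values were -0.10 and 0.0037, so that the sign in Col_Kyn depended on that library. Without Col_MS replicate 2 they were 0.52 and 0.63 (edgeR adjusted p = 0.149 and 0.0838).

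DAO2 had 17.5 and 21.5 CPM in Col_Kyn, 19.0 and 20.5 in wei8tar2_MS, and 19.7 and 20.5 in Col_MS. All groups overlapped, and the log2 fold change against Col_MS was -0.05 ± 0.14 in Col_Kyn (adjusted p = 0.890) and -0.02 ± 0.13 in wei8tar2_MS (adjusted p = 0.943). The 95% interval for Col_Kyn ran from -0.37 to 0.27, the narrower of the 2 oxidases. Per length, DAO2 stood above DAO1 in every library, by a ratio of 2.52 and 3.28 in Col_Kyn, 2.48 and 3.00 in wei8tar2_MS, and 4.13 and 2.83 in Col_MS.

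The amidohydrolases ILR1, IAR3 and ILL2 were named for mutants that resist IAA conjugates and for likeness to ILR1. ILR1 prefers IAA joined to leucine or phenylalanine, and IAR3 and ILL2 act best on IAA joined to alanine. All 3 stood higher in both mean levels, Col_Kyn and wei8tar2_MS, than in Col_MS, by at most 0.34 on the log2 scale, and none passed the test.

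ILR1 (chromosome 3, 631824 to 634074, plus strand) had 21.2 and 22.0 CPM in Col_Kyn, 23.9 and 23.6 in wei8tar2_MS, and 20.3 and 17.3 in Col_MS. The 3 groups did not overlap, with wei8tar2_MS highest and Col_MS lowest. Against Col_MS its log2 fold change was 0.20 ± 0.12 in Col_Kyn (95% interval -0.09 to 0.48, edgeR adjusted p = 0.451) and 0.34 ± 0.12 in wei8tar2_MS (0.05 to 0.62, adjusted p = 0.178). The Col_Kyn value was 0.32 without Col_MS replicate 1 and 0.10 without Col_MS replicate 2. Between wei8tar2_MS and Col_Kyn it was 0.14 ± 0.12 (adjusted p = 1.00). The closest relative of ILR1 by coding sequence was ILL3, with 72.6% identity over 292 aligned bases on another chromosome.

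IAR3 (chromosome 1, 19199351 to 19201707, plus strand) had 75.6 and 64.5 CPM in Col_Kyn, 75.0 and 75.4 in wei8tar2_MS, and 67.5 and 63.0 in Col_MS. The 2 wei8tar2_MS libraries were close together and lay above both Col_MS libraries, while the Col_Kyn libraries overlapped with both other groups. The log2 fold change against Col_MS was 0.10 ± 0.11 in Col_Kyn (adjusted p = 0.680) and 0.20 ± 0.11 in wei8tar2_MS (adjusted p = 0.353). IAR3 has a tandem copy, ILL5, 2804 bases away and 87.4% identical in coding sequence, which had 1 read in the 6 libraries together, in wei8tar2_MS replicate 1. The deposited counts thus assign 11090 reads to IAR3 and 1 to its copy.

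ILL2 (chromosome 5, 22933267 to 22935316, plus strand) had 31.1 and 28.6 CPM in Col_Kyn, 27.8 and 30.2 in wei8tar2_MS, and 23.1 and 25.1 in Col_MS. Every library of Col_Kyn and wei8tar2_MS was above both Col_MS libraries. Against Col_MS the log2 fold change was 0.31 ± 0.11 in Col_Kyn (95% interval 0.05 to 0.57, edgeR adjusted p = 0.232) and 0.27 ± 0.11 in wei8tar2_MS (0.01 to 0.52, adjusted p = 0.231). Between wei8tar2_MS and Col_Kyn the value was -0.04 ± 0.11 (adjusted p = 1.00). ILL1, a copy 444 bases away on the same strand, was 90.7% identical over 1323 aligned bases with a longest shared run of 53 bases. The stretch of highest identity is shown because it is the closest match between any member and a gene of nearly the same level. It covers coding bases 661 to 810 of ILL2 and 658 to 807 of ILL1 in RefSeq (TAIR10.1), and capitals mark the 5 differing bases.
ILL2: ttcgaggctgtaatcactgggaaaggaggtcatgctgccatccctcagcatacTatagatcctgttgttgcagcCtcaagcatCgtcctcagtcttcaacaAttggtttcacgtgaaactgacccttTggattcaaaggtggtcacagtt
ILL1: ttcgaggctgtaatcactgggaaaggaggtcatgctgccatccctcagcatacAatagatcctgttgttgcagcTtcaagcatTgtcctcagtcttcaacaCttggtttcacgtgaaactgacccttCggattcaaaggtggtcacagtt
ILL1, which also hydrolyses IAA conjugates, had 31.4 and 26.9 CPM in Col_Kyn, 30.4 and 29.6 in wei8tar2_MS, and 26.9 and 27.9 in Col_MS. Its log2 fold change was 0.10 ± 0.11 in Col_Kyn (edgeR adjusted p = 0.705) and 0.13 ± 0.11 in wei8tar2_MS (adjusted p = 0.543). The ratio of ILL2 to ILL1 in RPKM was 0.944 and 1.01 in Col_Kyn, 0.870 and 0.973 in wei8tar2_MS, and 0.821 and 0.858 in Col_MS, so that both genes of the pair were at much the same level. ILL2 also overlaps 106 bases of AT5G56670, a protein-coding gene, and 196 bases of AT5G08615, an antisense RNA with no listed read. Both lie on the opposite strand, and whether the counting used strand is not stated. AT5G56670 had 3393 and 1652 reads in Col_Kyn, 2706 and 2523 in wei8tar2_MS, and 3330 and 3928 in Col_MS. Without strand, reads in the shared bases cannot be assigned, so the ILL2 level is also uncertain by an unknown share.

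**Figure D2:**
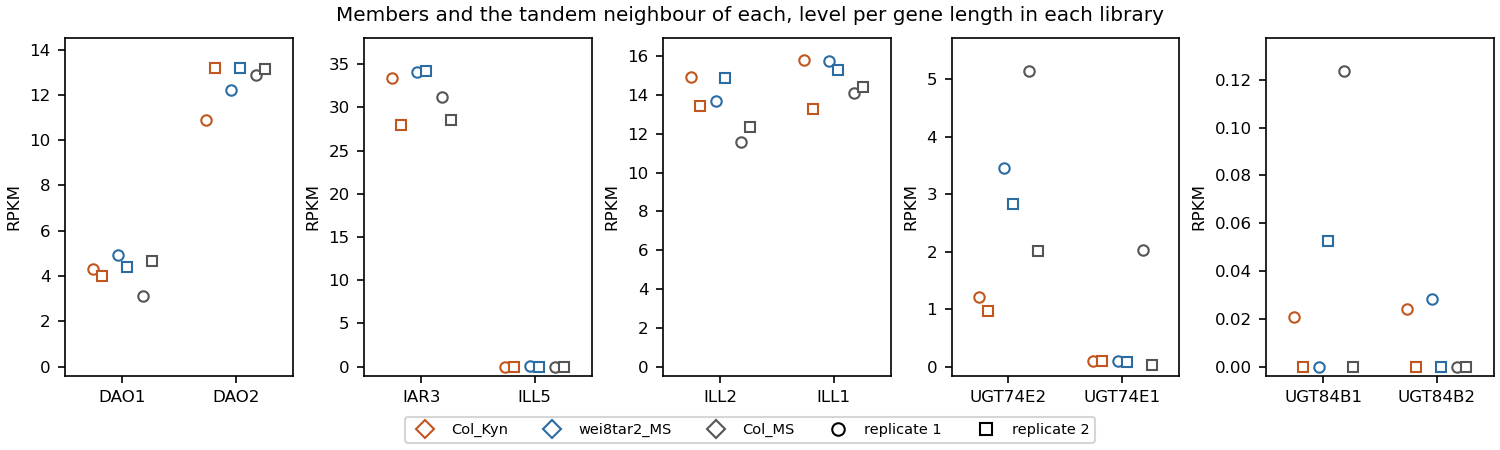
RPKM in each library for 5 of the genes, each beside its tandem neighbour; colour gives the group, circles replicate 1 and squares replicate 2, and each panel has its own linear axis. ILL2 and ILL1 lie at like levels, IAR3 far above ILL5, and UGT74E1 reached 2.04 RPKM in Col_MS replicate 1 alone, against 0.101 or less in the other 5 libraries.

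UGT74D1 joins glucose to IAA and to its oxidized form. It lies on chromosome 2 from 13497118 to 13500228 on the plus strand. Its level was 42.0 and 44.5 CPM in Col_Kyn, 43.2 and 45.7 in wei8tar2_MS, and 46.7 and 38.4 in Col_MS, where the 2 libraries spanned those of both other groups. The log2 fold change against Col_MS was 0.02 ± 0.12 in Col_Kyn (95% interval -0.26 to 0.31, adjusted p = 0.943) and 0.06 ± 0.12 in wei8tar2_MS (-0.22 to 0.34, adjusted p = 0.809). UGT74D1 shares 3089 bases with AT2G31751, a long non-coding RNA on the opposite strand. That locus had reads of its own listed, 582 and 311 in Col_Kyn, 478 and 446 in wei8tar2_MS, and 472 and 439 in Col_MS. Reads of the 2 genes cannot be told apart without strand, so the UGT74D1 level is uncertain by an unknown share.

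UGT74E2 glucosylates indole-3-butyric acid (IBA), a longer auxin that is turned into IAA, and is known as a gene induced by hydrogen peroxide and by water stress. It was the member that varied most. It had 1.99 and 1.60 CPM in Col_Kyn (62 and 28 reads), 5.47 and 4.50 CPM in wei8tar2_MS (149 and 114 reads), and 8.01 and 3.2 CPM in Col_MS (220 and 91 reads). Both Col_Kyn libraries were below all 4 others, and the wei8tar2_MS libraries lay between the 2 Col_MS libraries. The log2 fold change in Col_Kyn against Col_MS was -1.62 ± 0.43 (95% interval -2.62 to -0.62, edgeR adjusted p = 0.147), which did not pass. DESeq2 gave an adjusted p of 0.0184 for the same comparison, and over the 12 alternatives the adjusted p ran from 0.0113 to 0.331. In wei8tar2_MS against Col_MS the value was -0.17 ± 0.39 (-1.08 to 0.75, adjusted p = 0.850). The direct comparison of wei8tar2_MS with Col_Kyn, which is the test of the difference between both effects, gave 1.45 ± 0.43 (0.45 to 2.46, edgeR adjusted p = 0.904).

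The Col_MS level of UGT74E2 rested on 2 libraries that were 2.5-fold apart, a wider gap than that of 97.1% of tested genes in this group. Without Col_MS replicate 1 the log2 fold change in Col_Kyn was -0.81 ± 0.28 (adjusted p = 0.285), and without Col_MS replicate 2 it was -2.11 ± 0.25 (adjusted p = 0.0113). In wei8tar2_MS the sign turned, with 0.64 ± 0.27 without Col_MS replicate 1 (adjusted p = 0.292) and -0.65 ± 0.23 without Col_MS replicate 2 (adjusted p = 0.130). The comparison of wei8tar2_MS with Col_Kyn does not draw on the Col_MS level, so leaving out a Col_MS library could hardly move it. With 1 library of its own groups left out it stood between 1.31 and 1.64. Stress genes differed between the same 2 libraries: of 9 genes of oxidative, xenobiotic and mitochondrial stress, replicate 1 of Col_MS exceeded replicate 2 for 7, and the summed level of the 9 was 130 and 114 CPM in Col_Kyn, 140 and 131 in wei8tar2_MS, and 188 and 111 in Col_MS. Their part in the UGT74E2 values was not tested. In whole seedlings, fewer cells that make a transcript and less transcript per cell cannot be told apart, which holds for every level given here.

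UGT74E1, the tandem neighbour of UGT74E2 at 252 bases, had 5 and 3 reads in Col_Kyn, 4 and 3 in wei8tar2_MS, and 89 and 1 in Col_MS. The 89 reads fell in Col_MS replicate 1, the library in which UGT74E2 was also highest. The coding sequences of the pair were 89.5% identical over 1362 aligned bases, with a longest shared run of 59 bases. The stretch of highest identity is shown because both genes were high in the same library. It covers coding bases 319 to 468 of each gene in RefSeq (TAIR10.1), and the 9 differing bases are in capitals.
UGT74E2: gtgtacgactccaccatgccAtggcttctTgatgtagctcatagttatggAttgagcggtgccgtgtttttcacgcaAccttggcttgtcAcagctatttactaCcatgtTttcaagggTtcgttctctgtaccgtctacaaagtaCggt
UGT74E1: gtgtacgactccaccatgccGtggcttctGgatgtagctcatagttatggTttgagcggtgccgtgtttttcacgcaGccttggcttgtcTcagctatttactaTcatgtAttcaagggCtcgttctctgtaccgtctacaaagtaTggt
The ratio of UGT74E2 to UGT74E1 in RPKM was 12.7 and 9.53 in Col_Kyn, 38.0 and 38.8 in wei8tar2_MS, and 2.52 and 92.9 in Col_MS, and rested on few UGT74E1 reads in all libraries other than Col_MS replicate 1. It was lowest in Col_MS replicate 1 and highest in Col_MS replicate 2.

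UGT84B1, which glucosylates IAA in vitro, was close to absent from these seedlings at this depth. It had 1 and 0 reads in Col_Kyn, 0 and 2 in wei8tar2_MS, and 5 and 0 in Col_MS, 8 reads in all, of which 5 came from Col_MS replicate 1. It did not pass the filter and was not tested, and no fold change is given because most libraries are at or under the 3 reads that a count of 0 allows. Its tandem copy UGT84B2, 801 bases away and 82.7% identical, had 2 reads in all.

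IAMT1 makes the methyl ester of IAA, an inactive and mobile form. It lies on chromosome 5 from 22407427 to 22410974 on the minus strand, and no other coding sequence matched it at an expectation value of 1e-10. Its level was 9.29 and 6.06 CPM in Col_Kyn, 6.61 and 6.31 in wei8tar2_MS, and 8.81 and 9.48 in Col_MS. Both wei8tar2_MS libraries were below both Col_MS libraries, while the Col_Kyn libraries lay apart, one within the Col_MS range and one below both wei8tar2_MS libraries. The log2 fold change against Col_MS was -0.24 ± 0.21 in Col_Kyn (adjusted p = 0.609) and -0.50 ± 0.21 in wei8tar2_MS (95% interval -0.995 to -0.01, adjusted p = 0.237). The replicates of Col_Kyn were 1.53-fold apart, and without replicate 1 or replicate 2 of that group the Col_Kyn value was -0.59 or 0.02.

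**Figure D3:**
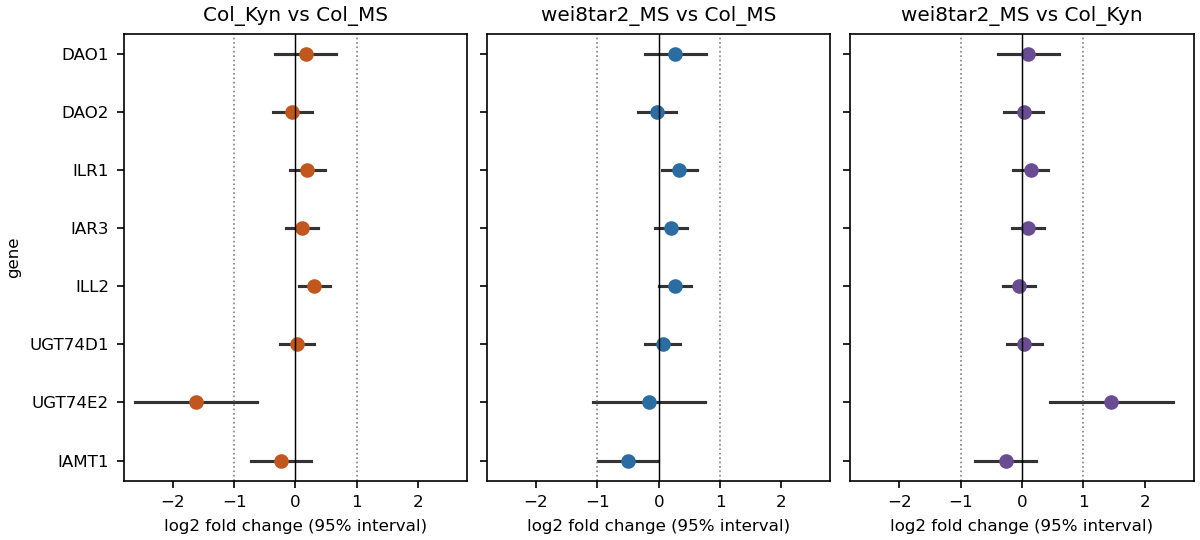
Log2 fold change with its 95% interval for the 8 tested genes in the 3 comparisons, from edgeR; dotted lines mark 2-fold either way. All intervals but those of UGT74E2 lie between the dotted lines, and UGT74E2 stands at -1.62 in Col_Kyn against Col_MS and at 1.45 in wei8tar2_MS against Col_Kyn.

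Counted over the 8 tested genes, the 2 Col_Kyn libraries lay wholly above both Col_MS libraries for 2 genes (ILR1 and ILL2) and wholly below for 1 (UGT74E2), where groups failed to overlap for 43.6% of all tested genes, 20.2% with Col_Kyn above and 23.4% with it below. The wei8tar2_MS libraries lay wholly above for 3 genes (ILR1, IAR3 and ILL2) and below for 1 (IAMT1), where the background was 55.6%, 26.6% with wei8tar2_MS above and 29.0% with it below. Between wei8tar2_MS and Col_Kyn 2 genes did not overlap (ILR1 and UGT74E2, both higher in wei8tar2_MS), with a background of 35.6%, 16.8% with wei8tar2_MS above and 18.8% with it below. Over both directions these shares were near the background or below it. By direction, the shares lying above exceeded their background and the shares lying below fell short of it, on counts of 3 genes or fewer. The comparisons of Col_Kyn and of wei8tar2_MS share the Col_MS libraries, so that a member can take the same sign in both through those libraries alone.

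The gap between the replicates of a group shows how far its libraries differed and is not a threshold of the test. It was widest for UGT74E2 in Col_MS, at 1.3 on the log2 scale, followed by IAMT1 in Col_Kyn at 0.61 and DAO1 in Col_MS at -0.59, each as replicate 1 minus replicate 2. Over all tested genes the median gap was 0.196 in Col_Kyn, 0.109 in wei8tar2_MS and 0.217 in Col_MS. IAR3 in wei8tar2_MS was the closest pair, with a gap of -0.01.

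**Figure D4:**
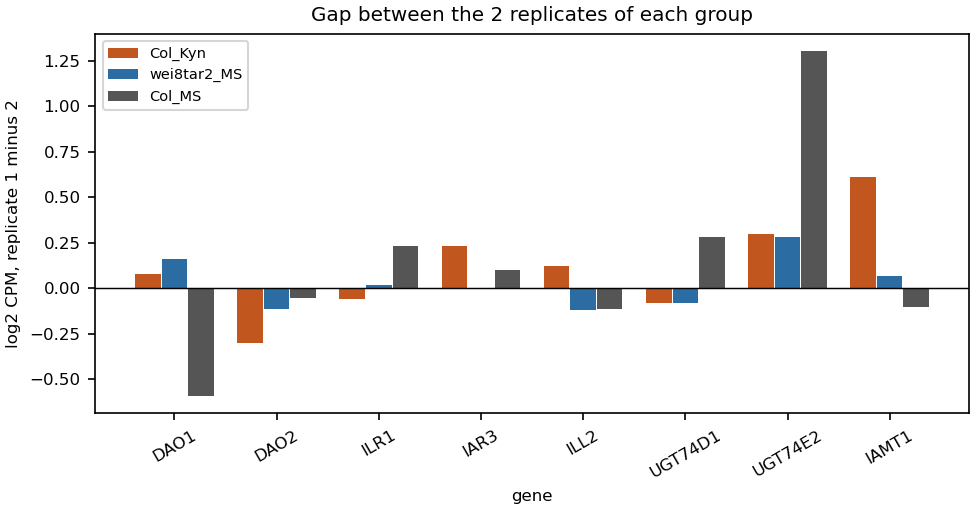
Difference of log2 CPM between replicate 1 and replicate 2 for the 8 tested genes, with a bar for each group; the line at 0 means equal replicates. The bar of UGT74E2 in Col_MS reaches 1.3, and those of DAO1 in Col_MS and IAMT1 in Col_Kyn reach -0.59 and 0.61.

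The sequence just upstream of each gene was searched on both strands for 4 short motifs, in the 250 bases before the annotated gene start. TGTCTC, the classical auxin response element, was found for IAR3 and UGT74E2, 2 of the 9 genes, and in 10.9% of 27443 such stretches of protein-coding genes. TGTCGG, a form that auxin response factors bind strongly, was found for 0 of 9 and in 4.16% of stretches. TGACG, the core of as-1 type elements, was found for ILL2 and in 18.6% of stretches. TTGACC, 1 form of the W-box, was found for 0 of 9 and in 12.2% of stretches. Its other form, TTGACT, was not searched for, so the W-box as a whole was not counted. No member held more than 1 of the 4 motifs. The stretches with TGTCTC are shown as read along the gene, with the motif in capitals. The UGT74E2 stretch is chr1:1704839-1705088 on the minus strand, with the motif 171 bases before the gene start. The IAR3 stretch is chr1:19199101-19199350 on the plus strand, with the motif on the opposite strand, so that its reverse complement is read, starting 210 bases before the gene. Both are from RefSeq (TAIR10.1).
UGT74E2: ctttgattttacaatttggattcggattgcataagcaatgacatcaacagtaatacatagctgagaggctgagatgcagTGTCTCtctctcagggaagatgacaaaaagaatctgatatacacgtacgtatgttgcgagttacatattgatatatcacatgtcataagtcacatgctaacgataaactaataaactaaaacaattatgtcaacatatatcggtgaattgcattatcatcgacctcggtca
IAR3: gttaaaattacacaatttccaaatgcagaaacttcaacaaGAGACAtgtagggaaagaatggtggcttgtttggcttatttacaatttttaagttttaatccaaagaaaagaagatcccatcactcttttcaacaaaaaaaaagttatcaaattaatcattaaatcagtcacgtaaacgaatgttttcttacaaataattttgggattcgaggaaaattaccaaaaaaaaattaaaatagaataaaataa
Of these, UGT74E2 had the largest fold change of the members and the widest intervals, while the intervals of IAR3 lay within 2-fold in all 3 comparisons.

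Across the 33 other genes of auxin conjugation, conjugate release and related steps, 27 were tested. Between Col_Kyn and Col_MS 1 was called higher and 2 lower, and wei8tar2_MS against Col_MS gave the same counts, with 0 called between wei8tar2_MS and Col_Kyn. At an unadjusted p under 0.05 these comparisons had 11, 11 and 1 of the 27 genes. Of all tested genes, 0.366%, 1.08% and 0.0281% were called in the same 3 comparisons, and 17.0%, 20.6% and 4.32% had an unadjusted p under 0.05. The lists were chosen with earlier results of these data known, so the counts beside these shares are no test of the lists.

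The gene called higher was MES1 (AT2G23620, chromosome 2, 10047308 to 10049413), a methylesterase that hydrolyses methyl esters of IAA, jasmonate and salicylate in vitro and so runs opposite to IAMT1. MES1 had 45.9 and 40.2 CPM in Col_Kyn, 49.4 and 53.5 in wei8tar2_MS, and 21.1 and 24.4 in Col_MS. All 4 libraries of Col_Kyn and wei8tar2_MS were above both Col_MS libraries. It rose by 0.92 ± 0.12 on the log2 scale in Col_Kyn (edgeR adjusted p = 0.0387) and by 1.18 ± 0.12 in wei8tar2_MS (adjusted p = 0.0164). The adjusted p ran from 3.45e-06 to 0.149 over the alternatives in Col_Kyn, where the call was kept without Col_MS replicate 2 (0.0139) and lost without any other single library. In wei8tar2_MS it ran from 1.64e-10 to 0.277, and the call was lost without either wei8tar2_MS library. Between wei8tar2_MS and Col_Kyn it stood at 0.25 ± 0.12 (adjusted p = 1.00). Of the 8 methyl-IAA esterases tested, 6 had positive values in each comparison with Col_MS, with medians of 0.42 in Col_Kyn and 0.54 in wei8tar2_MS. The median of all tested genes was -0.02 in both comparisons, which share the Col_MS libraries. Some of the 8 had few reads, with 102 for MES9 and 51 for MES18 over the 6 libraries. MES1, MES2 and MES3 are neighbours on chromosome 2, and how near-identical reads were placed among them was not tested.

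Among the other amidohydrolases, 0 of 3 tested genes were called in either comparison with Col_MS, and the largest value was that of ILL6, which acts on the conjugate of jasmonate with isoleucine. ILL6 (AT1G44350) had 45.7 and 58.2 CPM in Col_Kyn, 62.8 and 57.8 in wei8tar2_MS, and 36.8 and 40.3 in Col_MS. Its log2 fold change was 0.43 ± 0.14 in Col_Kyn (edgeR adjusted p = 0.197) and 0.64 ± 0.14 in wei8tar2_MS (adjusted p = 0.0699), and DESeq2 gave 0.00533 in wei8tar2_MS. The Col_Kyn value was 0.59 without Col_Kyn replicate 1 and 0.24 without Col_Kyn replicate 2. Over the alternatives the adjusted p ran from 0.122 to 0.441 in Col_Kyn and from 0.00533 to 0.596 in wei8tar2_MS.

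Of the other glucosyltransferases and the tandem neighbours of the members, 3 of 5 were tested and 0 were called. UGT75D1, which glucosylates IBA, had 33.7 and 51.0 CPM in Col_Kyn, 49.1 and 49.8 in wei8tar2_MS, and 51.7 and 66.1 in Col_MS. Its log2 fold change in Col_Kyn was -0.48 ± 0.20 (edgeR adjusted p = 0.286), and -0.21 without Col_Kyn replicate 1, -0.81 without Col_Kyn replicate 2 and -0.28 without Col_MS replicate 2. UGT75B1 stood at 0.26 ± 0.15 in wei8tar2_MS (adjusted p = 0.373). The 4 genes of peroxisomal IBA oxidation, a source of IAA from IBA, had values between -0.03 and 0.13 in Col_Kyn and between -0.08 and 0.09 in wei8tar2_MS. ECH2 had the largest value in both, at 0.13 and 0.09 (edgeR adjusted p = 0.539 and 0.658). Of the other loci at which mutants resist IAA conjugates, 3 of 4 were tested and the largest value was that of ILR3, a transcription factor, at 0.15 in Col_Kyn (edgeR adjusted p = 0.493) and 0.13 in wei8tar2_MS (adjusted p = 0.499).

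Among GH3 genes, whose products form the conjugates that ILR1, IAR3 and ILL2 cleave, GH3.5 and GH3.6 were the 2 called lower, and the median over the 6 tested GH3 genes was -1.48 in Col_Kyn and -1.32 in wei8tar2_MS. GH3.6 stood at -1.18 ± 0.14 in Col_Kyn (edgeR adjusted p = 0.0264) and -1.20 ± 0.14 in wei8tar2_MS (adjusted p = 0.0252). GH3.5 stood at -1.25 in Col_Kyn and -1.19 in wei8tar2_MS. In Col_Kyn the calls of both genes were kept without Col_MS replicate 2 and lost without any other single library. In wei8tar2_MS both calls were lost without Col_MS replicate 1 and without either wei8tar2_MS library. Without Col_MS replicate 1 GH3.6 was -1.06 in Col_Kyn and -1.09 in wei8tar2_MS, and GH3.5 was -1.03 and -0.97. Over the alternatives the adjusted p of GH3.6 ran from 5.03e-08 to 0.115 in Col_Kyn and from 1.59e-08 to 0.426 in wei8tar2_MS, and that of GH3.5 from 2.76e-08 to 0.151 and from 1.66e-07 to 0.458. Summed over 6 root hair genes, the level was 103 and 98.4 CPM in Col_Kyn, 96.5 and 104 in wei8tar2_MS, and 133 and 218 in Col_MS. Of these 6, all 6 were lower in both Col_Kyn libraries than in both Col_MS libraries, against 23.4% of all tested genes. In wei8tar2_MS 5 of the 6 were lower in this way, against 29.0%. By the same count 4 of 7 root tip genes were lower in Col_Kyn and 4 in wei8tar2_MS. Of 4 xylem genes it was 1 in Col_Kyn and 0 in wei8tar2_MS. The part of these marker genes in the GH3 values was not tested.

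**Figure D5:**
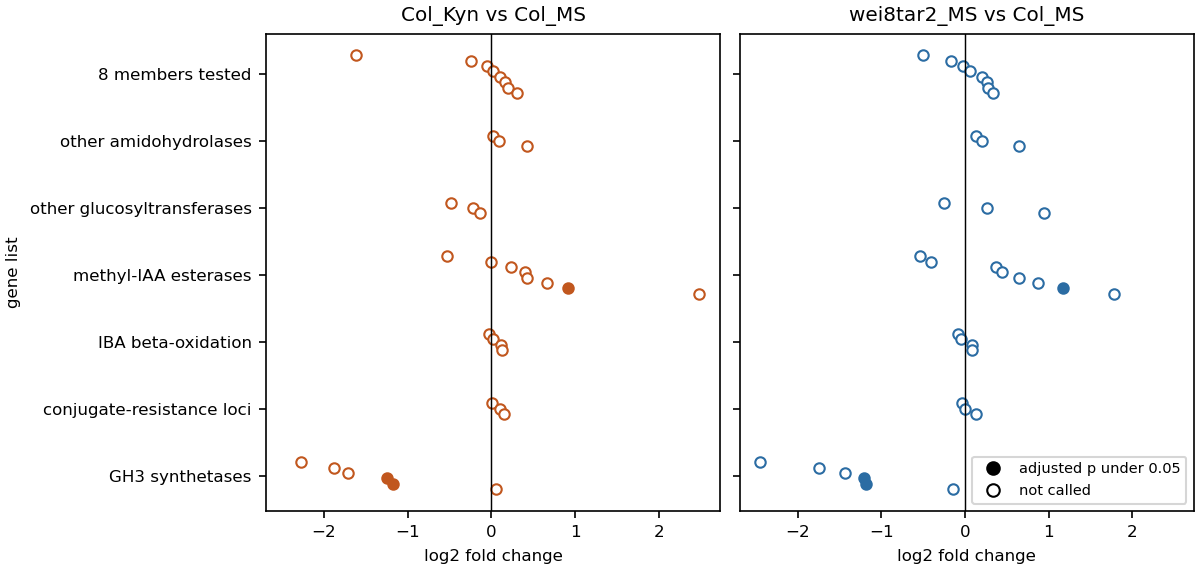
Log2 fold change of each tested gene by list, for Col_Kyn against Col_MS on the left and wei8tar2_MS against Col_MS on the right; filled points passed an adjusted p under 0.05. The filled points are MES1 above 0 and GH3.5 and GH3.6 below 0, and the 8 members hold no filled point.

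Genes whose log2 CPM followed that of a member most closely were sought by Pearson correlation over the 6 libraries, among 15383 genes with a mean of at least 5 CPM. The coefficients are a description over few libraries that share group and depth, and 23 to 115 genes had a value above 0.95 for each member. For ILR1 the closest were GTA2 (AT4G08350, r = 0.998) and AT3G05670 (0.989), and for IAR3 AT2G39550 (0.995) and HMA4 (0.990). ILL2 was followed by KLCR2 (0.997) and ZAC (0.995). DAO1 had AT3G05940 (0.989) and AT2G17350 (0.988), and DAO2 had RP1 (0.993) and AT5G65300 (0.991). UGT74D1 had AT4G29790 (0.986) and AT3G03560 (0.983), and UGT74E2 had AT1G51690 (0.989) and AOC3 (0.989), a gene of jasmonate synthesis. IAMT1 was closest to SK2 (0.998) and UXS5 (0.993). No member was among the genes named for another. Between members, the highest coefficient was 0.72 for ILR1 and IAR3, and the lowest -0.79 for ILR1 and IAMT1.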

How the data were processed

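Per the file headers, each deposited table gives, per gene, counts of uniquely mapped reads and the RPKM the authors computed from them and the gene length. TopHat 1.3.0 and the TAIR10 build are named in the submitters' processing notes. The counting program and its strand setting are not stated there or in the headers. Unlisted genes were taken as 0. Library totals were 31817638 and 18143395 reads in Col_Kyn, 26943103 and 25129503 in wei8tar2_MS, and 26753309 and 28243135 in Col_MS. Floors cover counting error only, as PCR copies were not told apart.

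Counts were fitted with edgeR 4.0.16 in R 4.3.3: TMM scaling, filterByExpr by group, and a model of 1 coefficient per group over the 6 libraries, tested by the quasi-likelihood F-test. Benjamini-Hochberg adjustment ran over the 21326 genes tested, and genes were called at an adjusted p under 0.05. SE is the size of the log2 fold change over the root of its F. CPM are TMM-scaled. The fit was tested on simulated data. Alternatives were other scaling, no filter, DESeq2 1.42.0, only the groups compared, a replicate block, and leaving out each library. No library was a copy of its replicate: chi-square per degree of freedom was 28.6 in Col_Kyn, 5.26 in wei8tar2_MS and 39.0 in Col_MS.

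The members and lists were chosen with earlier results of these data known. Beside the members, genes were named where called in a comparison, or else as the gene of the list with the largest absolute change among those with a mean of at least 1 CPM; for pattern, the 2 genes with the highest correlation. Names, coordinates and sequences are those of RefSeq (TAIR10.1), matched by locus for 25911 of 26185 loci. Relatives were sought with BLAST 2.17.0 (blastn) on coding sequences, in place of the protein search that was planned.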

Additional observations from a re-analysis of the deposited data

How the results depend on the processing

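The count of members called was 0 in each comparison under every alternative run but 2: between Col_Kyn and Col_MS it was 1 with DESeq2, and 0 to 1 when 1 library was left out. That gene was UGT74E2 each time. Genes called between Col_Kyn and Col_MS numbered 78, and 409 with no filter, 735 with DESeq2, 130 with a replicate block, 0 with only the groups compared (2384 at an unadjusted edgeR p under 0.05) and 0 to 1080 with 1 library left out. For wei8tar2_MS against Col_MS there were 230, and 1113, 1317, 367, 352 and 4 to 1719 under the same alternatives. For wei8tar2_MS against Col_Kyn there were 6, and 26, 55, 12, 11 and 4 to 17, with 12 on library totals alone. Col_MS replicate 2 gave the highest counts when left out, 1080 and 1719, and without Col_MS replicate 1 they were 42 and 52.

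Of the 33 other genes, 3 were called in each comparison with Col_MS. In Col_Kyn there were 6 with no filter, 5 with DESeq2, 5 with a replicate block, 0 with only the groups compared and 0 to 6 with 1 library left out. In wei8tar2_MS there were 8, 6, 6, 5 and 0 to 7. Libraries with equal replicate numbers deviated together with correlations of 0.202, 0.0220 and -0.0390, so the numbers were not shown to pair them.

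On library totals alone UGT74D1 was -0.043 in Col_Kyn against Col_MS and ILL2 0.011 in wei8tar2_MS against Col_Kyn. With 1 library left out, the log2 fold changes in Col_Kyn ran over -0.10 to 0.52 (DAO1), -0.20 to 0.10 (DAO2), -0.017 to 0.21 (IAR3), -0.092 to 0.17 (UGT74D1) and -0.59 to 0.022 (IAMT1). In wei8tar2_MS against Col_MS they ran over -0.081 to 0.032 (DAO2), -0.043 to 0.21 (UGT74D1) and -0.65 to 0.64 (UGT74E2). In wei8tar2_MS against Col_Kyn they ran over -0.12 to 0.19 (DAO2), -0.10 to 0.021 (ILL2), -0.0019 to 0.093 (UGT74D1), -0.51 to 0.092 (IAMT1) and -1.21 to 1.02 (GH3.3). The cause was not tested. By CPM in place of RPKM, DAO2 moved to place 5 and ILR1 to 4, UGT74E2 to 8 and IAMT1 to 7.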
